A study of Mus musculus with 32 samples.

Results

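The apolipoproteins Apoe, Clu and Apod, the lipid exporters Abca1 and Abcg1 and the lipoprotein receptor Lrp1 were followed through single brain cells of mice with and without an amyloid precursor protein transgene. The 6 genes were chosen by name from the 55341 genes of the count files, and each was read as counts of unique molecular identifiers (UMIs, 1 for each captured RNA molecule) in 5 cell types. Cortex and hippocampus of 16 females aged 15 months gave 1 library each. The sample labels name both regions while the description of the series names cortex alone, and regions follow the labels here. Wild type (WT) mice and Tg2576 mice drank either plain water (vehicle) or water with PMX205, an antagonist of the complement receptor C5aR1, for 12 weeks. The Tg2576 groups had 4 mice with vehicle and 4 with PMX205, and the WT groups had 5 and 3. The comparisons asked where in the brain these genes were expressed, and whether genotype, treatment or region changed them.

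Tg2576 mice are hemizygous for a transgene for human amyloid precursor protein with the Swedish mutation, driven by the prion promoter on a B6/SJL background. The WT mice were described as their littermates. The genotype labels name the transgenic mice only as APP, and the strain labels name them as an Arctic model. The strain labels also name a constitutive C5ar1 knockout in 5 mice (2 WT-vehicle and 1 of each other group) and C5a overexpression under the GFAP promoter in 5 mice (2 of each vehicle group and 1 Tg2576-PMX205). In 2 mice, WT-vehicle 4 and Tg2576-vehicle 3, the strain label contradicted the genotype label, and these mice were kept in the group of their genotype label. C5ar1 UMIs were found in the microglia of 4 of the 5 mice labelled knockout (0 to 60.0 CPM, UMIs of a gene scaled to 1000000 UMIs, median 19.8), against 0 to 75.0 CPM (median 36.75) in the 6 mice with no such label. Whether the counted 3' end lies inside the deleted part is not given in the sources used here, so these counts do not settle that label.

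Cells had been pulled from brain tissue with beads against CD11b, a surface protein of microglia, and ACSA-2, a surface protein of astrocytes, so endothelial, mural and ependymal cells were those carried along. Of 13917 deposited barcodes, 5626 were kept, and marker genes assigned 2901 to microglia, 1192 to astrocytes, 253 to mural cells (pericytes and smooth muscle), 186 to endothelial cells and 37 to ependymal cells. The libraries held 37205 to 1072049 UMIs. The summed microglial markers stood at 36728 CPM in microglia and 3569 CPM in astrocytes, and the summed astrocyte markers at 28184 CPM in astrocytes and 1999 CPM in microglia, so each type also held RNA of the other. Altogether 65 barcode sequences occurred in more than 1 library, and they covered 351 microglia (12.1%) and 14 astrocytes (1.17%). The microglia with a shared barcode held 11684 CPM of Apoe and 1987 CPM of Clu, against 7618 and 489 CPM in the others. Near-identical partners, with a mismatch at the first base alone, were found for 39% to 77.2% of barcodes in 4 mice. These were Tg2576-PMX205 2 and 3, Tg2576-vehicle 4 and WT-vehicle 5, and they were marked as a batch. The reported fits had no term for the batch and counted such barcodes as separate cells. A batch term and the merging of such barcodes were each used only in alternative settings.

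Apolipoproteins package cholesterol and phospholipid into particles that travel between brain cells. ABC transporters of the cell membrane load those particles with lipid, and receptors of the low-density lipoprotein family take them up again. In brain, astrocytes are the classic source of apolipoprotein E and clusterin particles, and microglia near plaques are known to raise Apoe. Abca1, Abcg1 and Apoe are textbook targets of the liver X receptors, nuclear receptors that sense oxysterols.

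In mm10 with GENCODE M21 annotation the members lie at chr7:19696109-19699188 (Apoe, minus strand), chr14:65968483-65981547 (Clu, plus), chr16:31296192-31314808 (Apod, minus), chr4:53030787-53159895 (Abca1, minus), chr17:31057675-31117988 (Abcg1, plus) and chr10:127538161-127621148 (Lrp1, minus). No exon of another gene overlapped theirs. The 250 bases before the RefSeq start of Abca1 (GRCm38.p6, chr4:53159896-53160145, minus strand) are shown because they held, on the opposite strand, 2 copies of GGTNA in the same orientation with 5 bases between them, the core of the repeat that liver X receptors bind. Capitals mark the match.
Abca1: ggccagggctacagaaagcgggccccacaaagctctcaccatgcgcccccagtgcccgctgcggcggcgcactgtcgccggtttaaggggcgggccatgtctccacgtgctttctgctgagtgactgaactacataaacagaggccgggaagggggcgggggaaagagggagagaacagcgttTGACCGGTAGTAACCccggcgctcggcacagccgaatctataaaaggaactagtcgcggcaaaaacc
The match covers bases 67 to 53 before the start. Searched on both strands, the motif occurred in 204 of 32851 such windows (0.621%), and it was not found in the windows of Apoe, Apod or Lrp1. Clu and Abcg1 had no entry.

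Apoe was highest in astrocytes and was counted in each of the other 4 types. Over mice, it stood at 24025 ± 2855 CPM in astrocytes (SD, n = 13), 11267 ± 3605 in ependymal cells (n = 3), 7060 ± 4147 in microglia (n = 16), 1894 ± 1380 in mural cells (n = 11) and 1123 ± 772 in endothelial cells (n = 9). The lowest astrocyte sum, 19203 CPM, lay above the highest microglial sum, 14513 CPM. The 3 ependymal sums were 8484, 9977 and 15339 CPM in WT-vehicle 1, WT-vehicle 4 and Tg2576-vehicle 1. Apoe UMIs were found in 99.3% of astrocytes thinned to 500 UMIs, 97.0% of ependymal cells, 38.3% of mural cells and 35.5% ± 20.3 of endothelial cells.

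**Figure D1:**
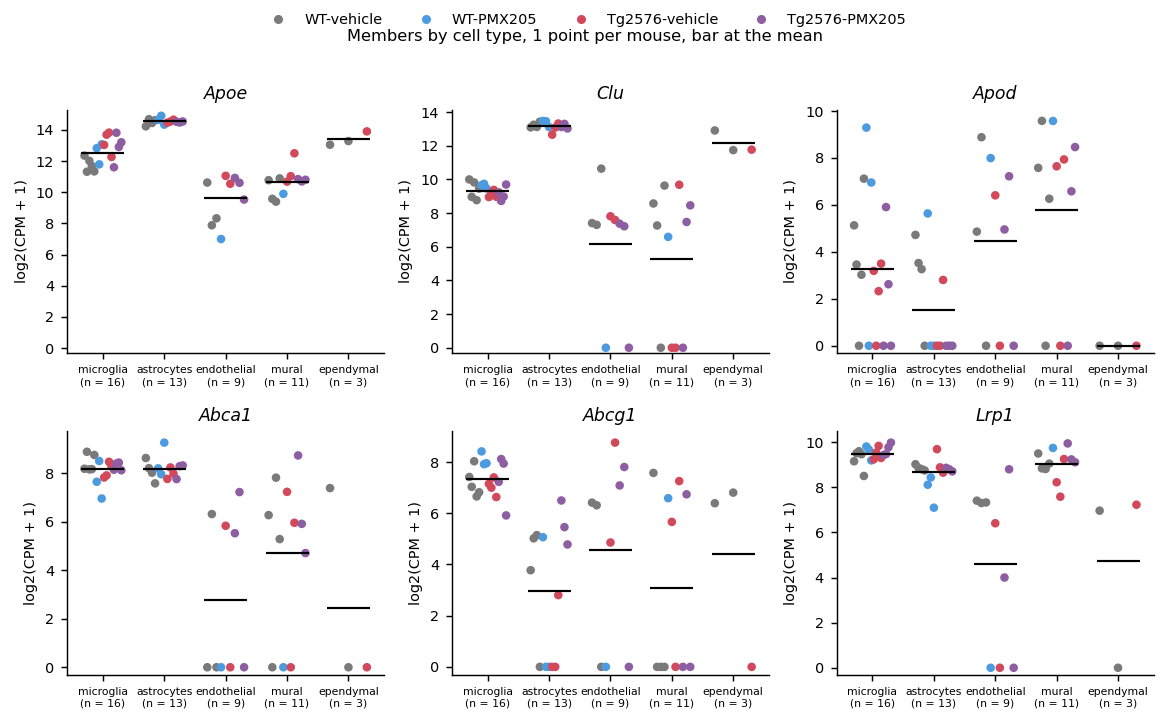
Level of each of the 6 genes in 5 cell types, 1 panel per gene, with log2(CPM + 1) on the vertical axis, 1 point per mouse and a bar at the mean of the log2 values. Apoe and Clu are highest in astrocytes, Apod reaches its highest mean in mural cells, and Abcg1 and Lrp1 have their highest means in microglia.

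Types were compared on UMI sums with the mouse as a block, and each log2 difference of a member below is given, unless marked otherwise, relative to the median difference of all 4390 genes, because the scaling of libraries moved that median. Each adjusted p belongs to the difference before this centring. In the quasi-likelihood test of edgeR, adjusted after Benjamini and Hochberg, 41 of 60 contrasts of a member between types passed an adjusted p of 0.05, and 36.7% of all gene contrasts did so. Under the RLE scaling 34 of the 41 kept their direction and their call. Of all genes, 55.0% passed between microglia and astrocytes, 52.5% between microglia and endothelial cells, 55.9% between microglia and mural cells, 31.5% between microglia and ependymal cells, 46% between astrocytes and endothelial cells and 43.8% between astrocytes and mural cells. The share was 22.2% between astrocytes and ependymal cells, 21.9% between endothelial and mural cells, 20.7% between endothelial and ependymal cells and 17.6% between mural and ependymal cells.

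The split of calls over all genes moved with the scaling. Genes higher and lower in microglia than in astrocytes numbered 1390 and 1026 under TMM and 914 and 1418 under RLE. The corresponding pairs against endothelial cells were 1767 and 538, then 721 and 906. Against mural cells they were 1935 and 520, then 804 and 890, and against ependymal cells 988 and 395, then 454 and 734. For astrocytes the pairs were 1420 and 599, then 974 and 863, against endothelial cells; 1442 and 483, then 940 and 624, against mural cells; and 724 and 249, then 381 and 408, against ependymal cells. RLE moved the median of all genes by -0.46 between microglia and astrocytes and by -0.94, -0.89 and -1.06 between microglia and the other types in the order above.

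Apoe was lower in microglia than in astrocytes in 14 of 14 mice (log2 difference -2.01, SE 0.19, adjusted p = 6.2e-20). It was higher in astrocytes than in ependymal cells (1.2, SE 0.37, adjusted p = 1.57e-06), and higher in microglia than in mural cells (2.21, SE 0.23). The order of microglia and ependymal cells was not settled. Apoe was lower in microglia in 3 of 3 mice and the relative difference was -0.64 (SE 0.34), but under TMM the difference before centring was 0.25 with adjusted p = 0.612, while RLE gave -1.06 with adjusted p = 0.00171. Endothelial and mural cells did not pass the test (-0.57 before centring, adjusted p = 0.0929). Their difference passed in 9 of 28 alternatives. Among these were 6 of 16 edgeR fits with 1 mouse left out (-0.96 to -0.43 before centring, lowest adjusted p = 0.00414).

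Clu, which encodes the secreted chaperone clusterin, was highest in astrocytes, followed by ependymal cells. Its levels were 9458 ± 1384 CPM in astrocytes (n = 13), 4884 ± 2453 in ependymal cells (n = 3), 660 ± 183 in microglia (n = 16), 295 ± 496 in endothelial cells (n = 9) and 252 ± 307 in mural cells (n = 11). The ependymal values were 7717, 3436 and 3500 CPM in the 3 mice named above. Clu was lower in microglia than in astrocytes in 14 of 14 mice (-3.92, SE 0.21, adjusted p = 1.48e-66), and higher in astrocytes than in ependymal cells (0.89, SE 0.39, adjusted p = 2.26e-04). The latter, 1.70 before centring, passed in 23 of 27 alternatives. It was 2.61 without WT-vehicle 1 and was not called without WT-vehicle 4 (1.17, adjusted p = 0.0973), at 1000 UMIs per barcode, with DESeq2 or with at least 10 cells of a type per mouse. Microglia lay below ependymal cells (-2.86, SE 0.36, adjusted p = 5.5e-07), and this call was lost without WT-vehicle 1 (-1.97 before centring became -1.18, adjusted p = 0.0688). Endothelial and mural cells lay below ependymal cells (-4.45, SE 0.40, and -4.22, SE 0.38). The endothelial mean rested on WT-vehicle 4 with 1601 CPM, while the other 8 mice held 0 to 224 CPM.

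Apod, a lipocalin known from fibroblasts, pericytes and oligodendrocytes, was sparse. Only 736 UMIs were counted in all kept barcodes. Its means were 244 ± 280 CPM in mural cells, 113 ± 159 in endothelial cells, 64 ± 156 in microglia, 7.63 ± 14.4 in astrocytes and 0 in the ependymal cells of 3 mice. Microglia passed against astrocytes under TMM (1.37, SE 0.57, adjusted p = 0.0104) but not under RLE (adjusted p = 0.0692), nor without Tg2576-PMX205 2, Tg2576-PMX205 3 or WT-PMX205 1 (adjusted p = 0.209, 0.0679 and 0.252). Mural cells were above astrocytes (astrocytes minus mural -4.29, SE 0.62, adjusted p = 2e-08) and above microglia (-2.97, SE 0.53, adjusted p = 3.16e-04), and above endothelial cells in 8 of 8 mice (endothelial minus mural -1.67, SE 0.64, adjusted p = 0.0432, but 0.0664 under RLE). The last call was also lost without Tg2576-PMX205 2 or 3, Tg2576-vehicle 3 or WT-PMX205 1 (adjusted p = 0.077 to 0.115), and without WT-PMX205 1 the difference of microglia from mural cells went from -2.09 to -3.27 before centring. The ependymal zero, over 70658 UMIs, allows up to 42.5 CPM when 3 counts are taken as the floor over the group. The mean of the mural mice was 5.74 times that floor, a ratio that leaves out their spread. Mural cells passed against ependymal cells by edgeR (6.57 before centring, adjusted p = 0.0144), and in 23 of 27 alternatives (1.98 to 7.96). The call was lost without WT-vehicle 1 (6.04, adjusted p = 0.205). Over all 37 ependymal cells, 0 with a UMI allows up to 8.11% of cells with an Apod UMI at this depth when 3 counts are the floor, and 9.49% as the upper end of the exact 95% binomial interval, which does not limit the share of cells that express the gene.

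A handful of barcodes held most Apod. The 13 barcodes with 10 or more Apod UMIs carried 468 of the 736 (63.6%), and 12 of the 13 matched no cell type. Fibroblast marker UMIs (Dcn, Lum, Col1a1, Col1a2, Col3a1) were present in 7 of the 13 (53.8%), against 2.14% of barcodes without Apod. The second highest barcode, with 42 UMIs, was a microglia barcode of WT-PMX205 1, and it gave nearly all of that mouse's 626 CPM.

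Abca1, which exports cholesterol and phospholipid to poorly lipidated apolipoproteins, was shared between the main glial types. It stood at 300 ± 84.8 CPM in microglia and 300 ± 108 in astrocytes, then 95.9 ± 129 in mural, 55.3 ± 95.8 in ependymal and 36.4 ± 51.6 in endothelial cells. Microglia and astrocytes did not pass the test (-0.09 relative to the median, adjusted p = 0.596). Both lay above endothelial cells (2.96, SE 0.49, for microglia and 3.04, SE 0.50, for astrocytes) and above mural cells (2.17, SE 0.40, and 2.30, SE 0.41). Their differences from ependymal cells passed under TMM (adjusted p = 0.0062 and 0.0187) and not under RLE, nor without Tg2576-vehicle 1 or WT-vehicle 4 (adjusted p = 0.0963 to 0.145). Of the 3 ependymal sums 2 held 0, and without WT-vehicle 1, the third, no ependymal UMI was left to set a size.

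Abcg1, the exporter that passes cholesterol on to particles already carrying lipid, had its highest level in microglia among the 5 types. Levels were 179 ± 79.4 CPM in microglia, 109 ± 142 in endothelial cells, 64.7 ± 57.7 in ependymal cells, 53.9 ± 70.7 in mural cells and 21.2 ± 26 in astrocytes. Microglia exceeded astrocytes in 14 of 14 mice (3.08, SE 0.38, adjusted p = 1.64e-17). Microglia also exceeded mural cells (1.68, SE 0.46) and endothelial cells (0.86, SE 0.46, adjusted p = 6.8e-04, but 0.206 under RLE, 0.056 without Tg2576-PMX205 2 and 0.0636 without WT-PMX205 1). Endothelial cells exceeded astrocytes (astrocytes minus endothelial -2.23, SE 0.55, adjusted p = 0.00945, but 0.11 without Tg2576-vehicle 3), and astrocytes and mural cells did not pass the test (adjusted p = 0.263). Microglia and ependymal cells did not pass either (0.92, SE 0.88, adjusted p = 0.102). Outside the 5 types, 19 cells with markers of oligodendrocyte precursors, too few for sums by mouse, held 21 Abcg1 UMIs. This is 546 CPM (exact 95% binomial interval 338 to 835, counting error only), against 188 CPM in all microglia pooled.

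Lrp1, a large endocytic receptor for apolipoprotein E particles, was spread over glia and mural cells. It stood at 726 ± 159 CPM in microglia, 569 ± 230 in mural cells, 434 ± 155 in astrocytes, 114 ± 144 in endothelial cells and 91 ± 79.8 in ependymal cells. Mural cells lay above endothelial cells in 8 of 8 mice (endothelial minus mural -2.40, SE 0.42, adjusted p = 3.35e-07). Microglia were above astrocytes in 13 of 14 mice (0.65, SE 0.22, adjusted p = 1.04e-04, but 0.08 under RLE) and above mural cells (0.63, SE 0.27, adjusted p = 1.03e-07, but 0.0706 under RLE). The latter, 1.51 before centring, was 0.91 to 0.99 and still passed without Tg2576-PMX205 3, Tg2576-vehicle 2, Tg2576-vehicle 3, WT-PMX205 3 or WT-vehicle 3. Astrocytes and mural cells did not pass the test (0.02, and 0.61 before centring, SE 0.27, adjusted p = 0.055). The sign of the difference before centring was toward astrocytes, while mural cells had the higher CPM in 8 of 11 mice, so no order is given.

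Of 41 other genes of lipoprotein handling, 21 were measured well enough to compare types. Their log2 differences are given before centring. Between microglia and astrocytes 7 were higher and 11 lower in microglia (median log2 difference -1.34, against 0.25 for all genes). All 5 measured genes of sterol synthesis were lower in microglia, among them the squalene epoxidase Sqle (-3.14). Also lower were the reelin and apolipoprotein E receptor Lrp8 (-3.21), the sorting receptor Sorl1 (-1.87), the cholesterol esterifying enzyme Soat1 (-1.34) and the sterol regulators Srebf1 (-2.66), Srebf2 (-1.81) and Insig1 (-2.70). Genes higher in microglia were Trem2 (3.30), a lipid-sensing receptor, the lysosomal sterol carrier Npc2 (2.19), lipoprotein lipase Lpl (2.68), the receptor-degrading ligase Mylip (2.43), Lsr (2.07), the transporter Abca7 (1.23) and lysosomal lipase Lipa (1.13). Under RLE, 16 of the 18 calls held in the same direction, and those of Abca7 (0.82, adjusted p = 0.205 by edgeR) and Lipa (0.67, adjusted p = 0.129) were lost. Of the same 21 genes, astrocytes had 13 higher and 4 lower both against endothelial and against mural cells, and 5 higher and 2 lower against ependymal cells. Microglia had 9 higher and 4 lower against endothelial cells, 11 and 1 against mural cells, and 4 and 3 against ependymal cells. Endothelial cells had 5 higher and 1 lower against mural cells and 1 and 4 against ependymal cells, and mural cells had 2 and 5 against ependymal cells. Under RLE the pairs for microglia were 5 and 5 against endothelial, 5 and 2 against mural and 3 and 6 against ependymal cells, and those for astrocytes were 11 and 5, 11 and 4, and 5 and 2 in the same order. The shares of all genes past the threshold in these contrasts are those given above.

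Across the 53 sums of a mouse and a type, the genes whose log2 CPM ran most like each member were Ckb (r = 0.937), Tsc22d4 (0.903) and Gpm6a (0.891) for Apoe and Ntrk2 (0.956), Scd2 (0.945) and Prdx6 (0.919) for Clu. Abca1 ran with Asah1 (0.863), Pnpla7 (0.853) and Cotl1 (0.853), Abcg1 with Ctsh (0.787), Entpd1 (0.779) and Ywhah (0.776), and Lrp1 with Cd81 (0.826), Cst3 (0.805) and Ctsb (0.803). The highest values for Apod were lower, with Slc5a5 (0.577), Cp (0.57) and Ankrd50 (0.553). Sums of the same mouse share libraries and depth, and these correlations are descriptions.

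Within microglia, Apoe was the 1 member that passed the test between Tg2576-vehicle and WT-vehicle mice. It stood at 5221, 2551, 4136, 3272 and 2588 CPM in WT-vehicle mice 1 to 5 and at 8400, 13248, 14513 and 4918 CPM in Tg2576-vehicle mice 1 to 4. The groups overlapped in 1 pair, WT-vehicle 1 above Tg2576-vehicle 4. The means were 3554 ± 1133 (SD, n = 5) and 10270 ± 4435 CPM (SD, n = 4). The fitted difference was 2.99-fold (log2 1.58, SE 0.35, adjusted p = 0.0396 by edgeR after Benjamini-Hochberg adjustment). It was 1 of 7 genes past the threshold among 4955 (0.141%), all higher in Tg2576, and DESeq2 called 8 genes with Apoe among them (adjusted p = 0.0215).

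The direction was the same in all 33 alternative settings (log2 0.99 to 1.95), and the call held in 16. Without barcodes found in more than 1 library it was 1.71 (adjusted p = 0.137), without the 2 mice of contradicting labels the adjusted p was 0.556, and in cortex and hippocampus alone it was 1.61 and 1.38 (adjusted p = 0.235 and 0.214). With the batch as a term it was 1.57 (adjusted p = 0.0275), and with the strain label as a covariate the adjusted p was 0.0106. Leaving out 1 mouse gave 1.38 to 1.81, and 7 of 16 such fits passed (adjusted p = 0.0026 to 0.239). The call was lost without any 1 of WT-vehicle 2, 3, 4 or 5, Tg2576-vehicle 1, 2 or 3, or Tg2576-PMX205 3 or 4.

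**Figure D2:**
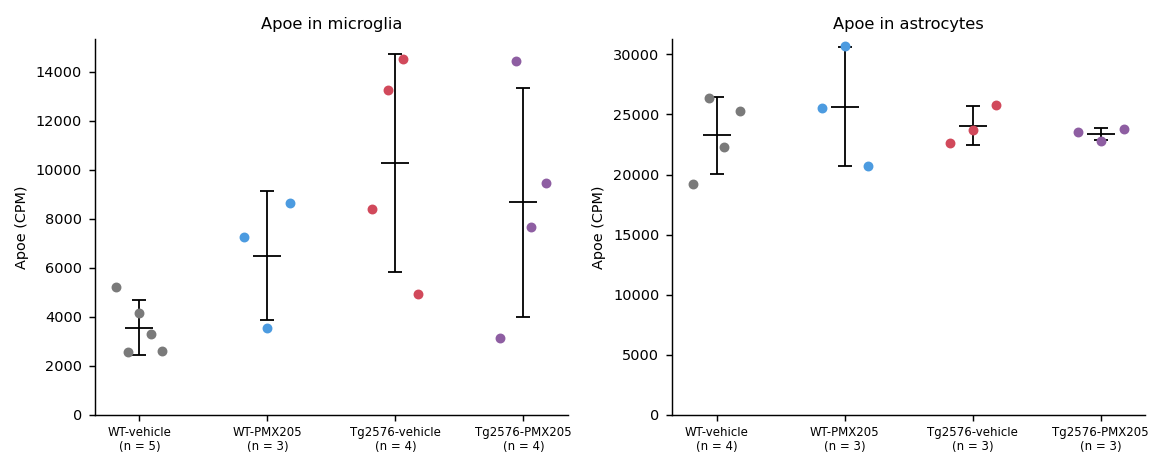
Level of Apoe in CPM on the vertical axes by group, in microglia (left) and astrocytes (right), with 1 point per mouse and bars at the mean and SD. In microglia, Tg2576-vehicle mice lie at 4918 to 14513 CPM and WT-vehicle mice at 2551 to 5221 CPM, and in astrocytes the 4 groups overlap.

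A larger share of microglia held an Apoe UMI in Tg2576-vehicle than in WT-vehicle mice. At 500 UMIs per cell the share was 79.0, 71.8, 79.8 and 82.1% in the 4 Tg2576-vehicle mice and 76.0, 46.2, 55.8, 48.2 and 58.8% in the 5 WT-vehicle mice. WT-vehicle 1 again reached into the Tg2576 range. The difference of the means was 21.2 percentage points (78.2% ± 4.45 against 57.0% ± 11.8, exact two-sided permutation p = 0.0317, smallest possible 0.0159), and the shares before thinning were 87.6 and 70.2%. Leaving out 1 of these mice gave differences of 18.5 to 25.9 points. The exact permutation p stayed below 0.05 without WT-vehicle 1 (25.9 points, p = 0.0286) or Tg2576-vehicle 2 (23.3 points, p = 0.0357). It was 0.0571 without WT-vehicle 2, 3, 4 or 5 and 0.0714 without Tg2576-vehicle 1, 3 or 4 by the same exact test, where 0.0286 and 0.0357 are the smallest values these sizes allow. The share in endothelial cells, 35.5% at a median depth of 1211 UMIs against 843 in microglia, lay below every microglial group mean. By group it was 24.1% in WT-vehicle (n = 3) and 49.5% in Tg2576-vehicle endothelial cells (n = 2), and mural cells held 32.5% (n = 4) and 47.6% (n = 3). The mice of both genotypes overlapped in both types, and these differences of 2 to 4 mice a group were not tested. PMX205 groups lay at 58.9% ± 6.96 in WT and 69.0% ± 10.7 in Tg2576 mice.

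PMX205 changed no member in microglia past the threshold. Apoe stood at 3109, 14446, 7676 and 9443 CPM in Tg2576-PMX205 mice (8668 ± 4686), which spanned nearly the whole Tg2576-vehicle range (log2 -0.26, SE 0.36, adjusted p = 1.0). The other members differed by 0.01 (Clu), 1.71 (Apod, SE 1.13), 0.14 (Abca1), 0.56 (Abcg1, SE 0.36) and 0.15 (Lrp1). No gene of 4955 (0.0%) passed edgeR or DESeq2, and 132 had an unadjusted p under 0.05. In WT mice Apoe stood at 7271, 3541 and 8628 CPM with PMX205 (6480 ± 2634), of which 2 values lay above all 5 vehicle values (log2 0.82, SE 0.37, adjusted p = 0.865). There Abcg1 stood at 341, 241 and 247 CPM against 170, 130, 261, 100 and 112 CPM (0.84, SE 0.40, adjusted p = 0.865), and Abca1 at 199, 361 and 123 against 289, 470, 284, 286 and 429 CPM (-0.52, SE 0.35, adjusted p = 0.901). Both pairs of groups overlapped. The 3 WT-PMX205 sums held 66, 65 and 28 microglia, against 88 to 426 in WT-vehicle mice. In 1 of the 3, perivascular macrophage markers reached 986 CPM, against at most 99.7 CPM in WT-vehicle mice. Apod had the largest difference of the members in WT mice, at 626, 0 and 123 CPM against 34, 10, 0, 7.14 and 138 CPM, with overlap (2.64, SE 0.85, adjusted p = 0.685). It was 0.05 without WT-PMX205 1, and of 29 alternatives 1, the fit without a filter on low counts, passed (2.51, adjusted p = 0.0452). Clu and Lrp1 differed by 0.14 and 0.30 (SE 0.30 each). No gene of 4955 (0.0%) passed edgeR or DESeq2 in WT mice, and 278 had an unadjusted p under 0.05. Both treatment comparisons share their vehicle mice with the genotype comparison.

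The other 5 members did not pass between genotypes. Clu stood at 1025, 500, 905, 436 and 704 CPM in WT-vehicle and at 496, 591, 665 and 502 CPM in Tg2576-vehicle microglia (log2 -0.31, SE 0.27), with overlap. Lrp1 stood at 569, 730, 775, 707 and 362 CPM against 604, 745, 914 and 631 CPM (0.24, SE 0.27), Abca1 differed by -0.26 (SE 0.29) and Abcg1 by -0.15 (SE 0.35). Apod was at 0 to 138 CPM in WT-vehicle and at 0 to 10.3 CPM in Tg2576-vehicle mice (-2.46, SE 1.08). The adjusted p of all 5 was 0.999.

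Microglia also held astrocytic RNA. The summed astrocyte gate markers had a median of 3044 CPM (1207 to 4349) in WT-vehicle and 1784 CPM (1335 to 2327) in Tg2576-vehicle microglia, the second range lying inside the first, and this difference was not tested. The ratio to 7 other astrocyte genes (Slc1a3, Plpp3, Ndrg2, Mt3, Gpr37l1, Cldn10, Bcan) shows how each member stands against that RNA. For Clu the ratio was 0.371 ± 0.0408 in astrocytes (SD, n = 13) and 0.335 ± 0.0766 in microglia (n = 16), with overlapping ranges. For Apoe the ratio was 0.95 ± 0.136 in astrocytes (n = 13), 1.65 ± 0.541 in WT-vehicle microglia (n = 5) and 6.85 ± 3.2 in Tg2576-vehicle microglia (n = 4). The lowest Tg2576-vehicle mouse, number 4, had a ratio of 2.46, against 0.828 to 2.21 in WT-vehicle mice, and the other 3 lay at 6.47, 9.14 and 9.31. The ratio was 2.43 ± 0.914 with PMX205 in WT (n = 3) and 5.3 ± 3.55 in Tg2576 microglia (n = 4). These ratios are descriptions. Perivascular macrophage markers had a median of 57.8 CPM in microglia and reached 986 CPM in 1 WT-PMX205 mouse.

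**Figure D3:**
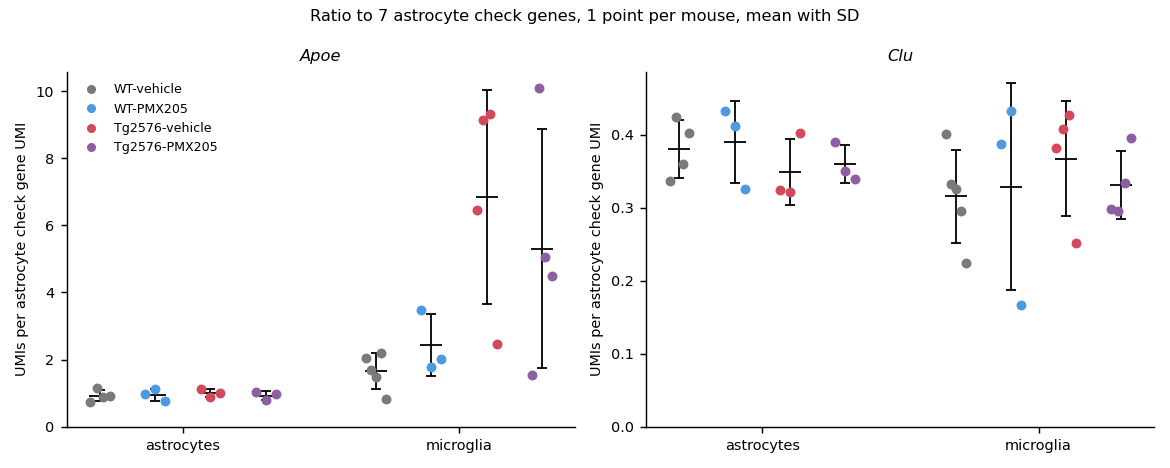
Ratio of Apoe and of Clu UMIs to the UMIs of 7 astrocyte genes in astrocytes and in microglia of each group, 1 point per mouse, bars at the mean and SD. The mean Clu ratio is 0.371 in astrocytes and 0.335 in microglia, while the mean Apoe ratio is 0.95 in astrocytes and 6.85 in Tg2576-vehicle microglia, where 1 of the 4 mice lies at 2.46.

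Microglia that carried plaque-response genes held more Apoe than the other microglia of the same mice. A gate asking for at least 2 of Cst7, Itgax, Lpl, Clec7a, Spp1, Gpnmb and Csf1, the disease-associated (DAM) genes, took 11.3 to 21.3% of Tg2576-vehicle and 7.25 to 24.5% of Tg2576-PMX205 microglia, against 0 to 0.469% in WT-vehicle and 0 to 1.52% in WT-PMX205 mice. In the 6 Tg2576 mice with at least 10 such cells, Apoe stood at 18990 ± 11630 CPM inside the gate and 5561 ± 2235 outside, and was higher inside in 6 of 6 mice by 1.28 to 5.09 times. Lrp1 was at 824 ± 200 inside and 719 ± 128 outside (higher in 4 of 6), Abca1 at 207 ± 104 and 336 ± 67.7 (lower in 5 of 6), Clu at 428 ± 86.0 and 560 ± 118 (lower in 5 of 6), and Abcg1 at 152 and 185 CPM. These are descriptions. In the microglia outside the gate, the genotype difference of Apoe was 0.99 (adjusted p = 1.0), against 1.58 with the gated cells, and the gate takes far more cells from Tg2576 than from WT mice.

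**Figure D4:**
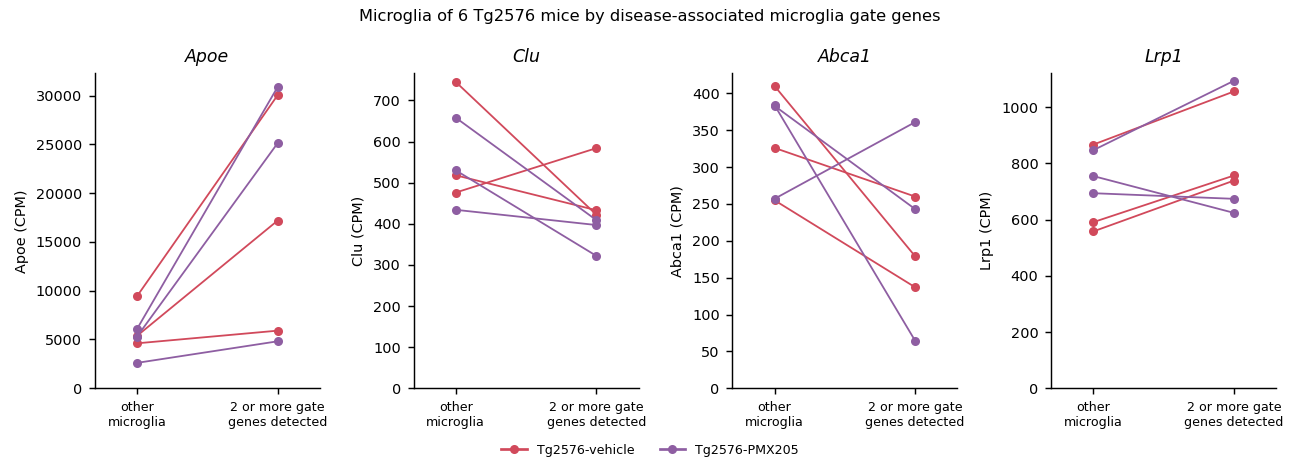
Level in CPM of members in microglia inside and outside the DAM gate, lines joining both values of a mouse, for 6 Tg2576 mice. Apoe is higher inside in 6 of 6 mice, and Abca1 and Clu are lower inside in 5 of 6.

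Over the 16 mice, the genes whose level ran most like Apoe within microglia were Ogfrl1 (r = 0.797), Tlr2 (0.797) and Lyz2 (0.766), as descriptions. Of the 41 pathway genes 13 were tested in microglia between genotypes and 0 passed by edgeR. Lpl, a DAM gate gene, had log2 3.00 (SE 0.70, adjusted p = 0.0604), Ch25h, which makes an oxysterol, 4.10 (SE 1.02, adjusted p = 0.112) and Trem2 0.33. The median of the 13 was 0.39, against -0.01 for all genes tested. None of the 13 passed in either treatment comparison.

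In astrocytes no member passed between genotypes or treatments. Apoe stood at 19203, 26362, 22300 and 25258 CPM in WT-vehicle, 25528, 30680 and 20729 in WT-PMX205, 22597, 23744 and 25823 in Tg2576-vehicle and 23504, 22790 and 23811 in Tg2576-PMX205 astrocytes. The 4 groups overlapped. The genotype difference was 0.05 (SE 0.12) for Apoe, -0.18 (SE 0.15) for Clu, -0.16 (SE 0.35) for Abca1 and 0.25 (SE 0.30) for Lrp1, each with adjusted p = 0.998. With PMX205 in Tg2576 mice they were -0.06, 0.08, 0.17 and -0.36, and in WT mice 0.12, 0.11, 0.34 and -0.84 (SE 0.35, adjusted p = 0.659). Lrp1 in WT-PMX205 astrocytes, at 276, 346 and 136 CPM, lay below the 4 WT-vehicle values of 429 to 520 CPM. Apod and Abcg1 were too low to test. Of 2911 genes 0 (0.0%) passed for genotype and 0 (0.0%) for PMX205 in Tg2576 mice by edgeR and DESeq2, and 103 and 101 had an unadjusted p under 0.05. In WT mice 1 gene (0.0344%), no member, passed, and under RLE 1 gene was higher and 1 lower.

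The genotype difference of Apoe was larger in microglia than in astrocytes. The difference between both was log2 1.80 (SE 0.38, adjusted p = 0.0206), and Apoe was the 1 gene of 5336 (0.0187%) to pass. DESeq2 gave 1.64 (adjusted p = 0.997) and called 0 genes. RLE moved the median of all genes from 0.06 to -0.08 and gave 1.63 (adjusted p = 0.0773), and leaving out barcodes found in more than 1 library gave 1.88 (adjusted p = 0.266). The difference rests on the 7 vehicle mice with enough cells of both types (3 Tg2576 and 4 WT). Tg2576-vehicle 4, the Tg2576-vehicle mouse with the least microglial Apoe, is not among them, and the genotype difference within microglia was 1.81 without it and 1.58 with it. Leaving out each of these gave 1.56 to 2.03, and 4 of the 7 fits passed. The call was lost without WT-vehicle 2 (adjusted p = 0.624), Tg2576-vehicle 2 (0.131) or Tg2576-vehicle 3 (0.2).

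In vascular cells Apoe did not pass between genotypes. Endothelial cells held 1575, 235 and 320 CPM in WT-vehicle 1, 2 and 4 and 2125 and 1491 CPM in Tg2576-vehicle 1 and 3 (log2 1.23, SE 0.51, adjusted p = 0.993). Mural cells held 1750, 764, 673 and 1894 CPM in WT-vehicle 1 to 4 and 1640, 2098 and 5793 CPM in Tg2576-vehicle 1 to 3 (1.26, SE 0.50, adjusted p = 0.993). Both sets overlapped. Single mice moved both values. The endothelial difference was 2.88 without WT-vehicle 1 and then passed (adjusted p = 0.0165), and the mural difference was 0.29 without Tg2576-vehicle 3 (adjusted p = 0.942). Of 578 endothelial and 1399 mural genes 0 (0.0%) passed by edgeR or DESeq2, with 17 and 54 at an unadjusted p under 0.05. These sums hold as few as 5 cells and also carry microglial RNA (3017 CPM of the microglial markers in endothelial and 4385 CPM in mural cells), whose part was not tested.

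Apoe was higher in hippocampal than in cortical astrocytes. From cortex to hippocampus it went from 18171 to 22820 CPM in WT-vehicle 1, from 27406 to 24599 in WT-vehicle 2, from 23839 to 29708 in WT-vehicle 4, from 13974 to 31401 in Tg2576-vehicle 1, from 22914 to 31110 in Tg2576-vehicle 3, from 21505 to 31406 in Tg2576-PMX205 2 and from 21363 to 34253 in Tg2576-PMX205 3. The hippocampus was higher in 6 of 7 mice, WT-vehicle 2 being the exception (29328 ± 4101 against 21310 ± 4279 CPM, log2 0.46, SE 0.12, adjusted p = 0.0194). Of 959 genes, 25 (2.61%) passed. Clu was higher in 6 of 7 mice (10400 ± 1698 against 8796 ± 2082 CPM) but did not pass (0.25, SE 0.12, adjusted p = 0.349), nor did Abca1 (-0.65, SE 0.35, adjusted p = 0.427) or Lrp1 (0.02). The 7 astrocyte check genes were higher in hippocampus in 7 of 7 mice (26355 against 24758 CPM), and 7 microglial genes were lower in 7 of 7 (628 against 1770 CPM); their part was not tested. Without the pairing by mouse the Apoe difference was 0.46 with adjusted p = 0.0751, and it also lost its call without Tg2576-PMX205 2, Tg2576-PMX205 3 or Tg2576-vehicle 3 (0.37 to 0.62 over the mice left out).

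**Figure D5:**
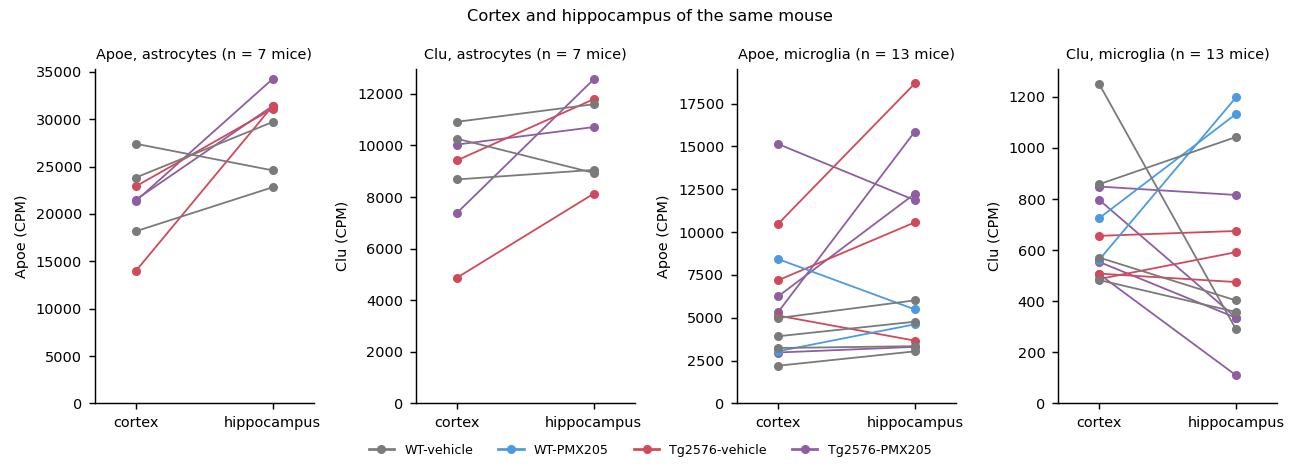
Apoe and Clu in CPM in cortex and hippocampus, lines joining both regions of a mouse, for astrocytes (7 mice) and microglia (13 mice). Apoe is higher in hippocampus in 6 of 7 mice in astrocytes and in 10 of 13 in microglia.

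In microglia none of the 5 members tested passed between regions, and Apod was too low to test. Its CPM was higher in cortex in 7 of 13 mice and in hippocampus in 2. Apoe was at 2196 to 15142 CPM in cortex (median 5123) and 3037 to 18676 CPM in hippocampus (median 5483), higher in hippocampus in 10 of 13 mice (log2 0.33, SE 0.13, adjusted p = 0.222). Clu was lower in 8 of 13 mice (-0.40, SE 0.20, adjusted p = 0.394), and Abca1, Abcg1 and Lrp1 differed by 0.05, -0.05 and 0.09. The 7 astrocyte check genes stood at 2142 ± 548 CPM in cortical and 1287 ± 618 CPM in hippocampal microglia (lower in 11 of 13), and their part in the Clu and Apoe values was not tested. With barcodes found in more than 1 library left out, Clu passed the test in the 8 mice that remained (-1.32, SE 0.32, adjusted p = 0.0389). Of 1565 genes 10 (0.639%) passed by edgeR, DESeq2 called 30, and 197 had an unadjusted p under 0.05. Of the 41 pathway genes, 0 of 5 tested in microglia and 0 of 12 in astrocytes passed between regions.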

How the data were processed

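Libraries were made with the ddSEQ SureCell 3' kit. The authors made the deposited counts with kb count (kallisto bustools) on mm10 and GENCODE annotation, as raw UMI counts per gene for barcodes with at least 300 UMIs. All 55341 symbols matched release M21. The submitters' processing notes also name bcl2fastq 2.18.0.12 and Seurat. The members and all gene lists were chosen with earlier results of these data known.

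Barcodes with at least 500 UMIs, 300 genes and at most 5% mitochondrial UMIs were kept, and the 6% of each library with the highest Scrublet score were removed as doublets (scanpy 1.11.5). A barcode was given a type when 1 marker list held at least 5 UMIs from at least 3 genes and at least 65% of its UMIs from all type lists. Perivascular macrophages were not separated from microglia except in an alternative. Names in the text are the 6 members, the pathway genes past the threshold in a comparison, and for each member the 3 genes with the highest Pearson correlation. Lpl, Ch25h and Trem2 in the genotype comparison were named after their values were seen.

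UMIs were summed per mouse and type, with at least 20 microglia or astrocytes, or 5 cells for other types and for contrasts of types. edgeR 4.0.16 (R 4.3.3, filterByExpr, TMM, quasi-likelihood, Benjamini-Hochberg adjustment, threshold 0.05) was fitted over all genes, with DESeq2 1.42.0 as an alternative. CPM is over all genes of the same cells. p-values measure the spread between mice. Shares of cells were the mean of 20 draws of 500 UMIs per cell and were tested by exact permutation of the mice, two-sided. Intervals and floors cover counting error only. Levels of different genes were not compared. The fits were also run on simulated counts as a check of the code, whose outcome is not given here. Cortex and hippocampus of a number came from the same mouse. Deviations of both regions correlated at 0.0105 to 0.395 (median 0.113, 13 pairs) in microglia against a median of -0.0151 between mice, and at 0.0755 to 0.214 (7 pairs) in astrocytes, so regions and types were fitted with the mouse as a block. Alternatives concerned doublets, gate limits, shared or near-identical barcodes, scaling, filter, tool, batch, strain label, region and each mouse left out. Leaving out shared barcodes and macrophage-marked microglia were chosen after seeing the data. Promoter windows came from RefSeq. Python 3.11.15, numpy 2.4.6, scipy 1.17.1, pandas 2.3.3 and matplotlib 3.10.9 were used.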

Additional observations from a re-analysis of the deposited data

Results flagged for a closer look

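Single mice stood apart in sparse members. Apod in the microglia of Tg2576-PMX205 2 was at 59.0 CPM, while the other 3 mice of its group held 0 to 5.15 CPM. Apod in the microglia of WT-vehicle 5 was at 138 CPM, against 0 to 34 CPM in the other 4. Abcg1 in the mural cells of WT-vehicle 1 was at 190 CPM, and the other 3 mice were at 0. These were 3 of 30 combinations of group and member examined, and chance flags about 1 in 20 groups of values that are not sparse. That rate was not measured for counts near 0, where 1 mouse with UMIs among mice at 0 is always picked out. The Abcg1 value rests on 5 UMIs, and 2 of the other 3 mice held 5 mural cells each.

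The genotype difference of Apoe was larger in microglia than in astrocytes by log2 1.80 in a test of the difference itself, and the call depended on the settings given above. Outside the 5 types, 1 barcode of Tg2576-vehicle 1 hippocampus that matched no type held 193 Apod UMIs, 26.2% of all, among 2598 UMIs, together with 28 UMIs of fibroblast markers.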

How the results depend on the processing

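Of 110 member differences, 44 passed the threshold and 25 of these passed in every setting run. Contrasts of types gave 41 of the 44, from 60 tests, where 36.7% of all gene contrasts passed. All other calls were of Apoe. Its genotype difference in microglia passed (with 0.141% of all genes), as did its region difference in astrocytes (2.61%). So did its genotype difference in microglia against that in astrocytes (0.0187%). No share of all genes was computed for the 25. Over 3172 alternative values, 2910 kept direction and side of the threshold, 95 lost and 25 gained the call, and 121, none past the threshold, changed sign where the reported value was below its standard error. Of these, 9 were then larger than their own standard error: Clu in microglia with PMX205 in WT (-0.97 without shared barcodes, -0.71 at 1000 UMIs) and Tg2576 mice (-0.71 in hippocampus), Abca1 in WT-PMX205 astrocytes (-1.12 at 1000 UMIs), between regions in microglia (-0.42 at 1000 UMIs) and between microglia and astrocytes (-0.32 under RLE, -0.33 with DESeq2), and Apoe between genotypes in cortical astrocytes (-0.33) and between microglia and ependymal cells (-1.03 with DESeq2). The microglial genotype count of 1 member, Apoe, became 0 with doublets kept, a 50% marker share, 1000 UMIs per barcode, shared barcodes left out, contradicting labels left out, cortex or hippocampus alone or the DAM gate left out, and was 0 to 1 over mice left out. The difference between microglia and astrocytes likewise went from 1 to 0 with a 50% share, shared barcodes left out, RLE, DESeq2, at least 50 cells per mouse, contradicting labels left out, either region alone or the DAM gate left out, and 0 to 1 over mice left out. The astrocyte region count went from 1 to 0 at 1000 UMIs, with barcodes differing at the first base merged and without the replicate block, and 0 to 1 over mice left out. Without that block the types gave 40 in place of 41 calls. The 41 became 27 at an 80% marker share, 39 without shared barcodes and 32 with DESeq2. A count of 0 became 1 for WT-PMX205 microglia without a filter and for the microglial region without shared barcodes, and was 0 to 1 for endothelial cells over mice left out (1 without WT-vehicle 1). The difference in the share of microglia with an Apoe UMI was 18.4 points without contradicting labels (exact permutation p = 0.114) and 20.7 in hippocampus (exact p = 0.0571), where 3 against 4 mice allow no p below 0.0571, and 18.5 to 25.9 over mice left out, with an exact p of 0.0286 to 0.0714.

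The other sign changes were these, none past the threshold before and after except where stated. Differences between types are before centring here. Clu between genotypes was 0.22 in hippocampal microglia, and in astrocytes 0.09 with more cells required and 0.12 in hippocampus. Abca1 in WT-PMX205 microglia was 0.08 in hippocampus. Lrp1 in Tg2576-PMX205 astrocytes was 0.10 with more cells required and -0.58 to 0.04 over mice left out. Apoe in WT-PMX205 astrocytes was -0.13 without a filter, -0.25 in cortex and -0.10 to 0.24 over mice left out. Apod in Tg2576-PMX205 microglia was -0.98 to 2.08 over mice left out, the former without Tg2576-PMX205 2. Between types, Apod in microglia against astrocytes, called at 1.62, was -0.23 at an 80% share, and Apoe in microglia against ependymal cells was -1.06 and called under RLE. Against ependymal cells, Apod was -0.18, -0.57 and -0.00 in microglia and -1.71, -2.09 and -0.83 in astrocytes with doublets kept, barcodes merged and DESeq2. Lrp1 in astrocytes against mural cells was -0.03 with doublets kept. Abca1 against ependymal cells was -2.21 to 4.29 in endothelial and -1.22 to 5.06 in mural cells over mice left out, the positive ends without WT-vehicle 1. The cause was not tested. Few ependymal and endothelial cells, and Apod at 736 UMIs, limit what these sums can show.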
